A study of Homo sapiens with 6 samples.

Results

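COPII coat genes encode the protein shell that pinches transport vesicles off the endoplasmic reticulum (ER). The 10 genes SEC13, SEC31A, SEC23A, SEC23B, SEC24A, SEC24B, SEC24C, SEC24D, SAR1A and SAR1B were chosen by symbol from the 26810 gene rows of the deposited table, and all 10 had a row and passed the filter on low values. SEC13 had been picked because its fall in the comparison described here was among the largest, and the other genes because they complete the coat. The members' values in that comparison are therefore given as a description, without p-values.

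The cells were U-937, a human acute myeloid leukemia line with monocytic features. The labels give it as carrying a KMT2A-MLLT10 fusion, which was not checked here and is not taken as established. A single Cas9-expressing clone received, by lentivirus, either the control guide sgNS or the METTL1 guide sgMETTL1.3, with 3 libraries of each. Both groups thus share the clone, Cas9, the transduction and selection with blasticidin at 10 µg/ml and hygromycin B at 200 µg/ml, and both were harvested about 8 to 10 days after transduction. METTL1 is the methyltransferase that adds N7-methylguanosine to tRNAs, and the comparison asks what the guide against it does to gene expression in AML cells. A single METTL1 guide was used, so what it does through METTL1 and what it does otherwise cannot be told apart. Nothing says whether the replicates were separate cultures, so errors and p-values reflect library-to-library spread that may be technical.

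COPII assembly starts when the small GTPase SAR1 is loaded with GTP at the ER and inserts into the membrane. SAR1 recruits the inner coat, in which SEC23 stimulates GTP hydrolysis by SAR1 and SEC24 binds the export signals of cargo proteins. SEC13 and SEC31 then form the outer cage over the inner coat. SEC13 also belongs to assemblies outside this pathway, the Nup107-160 scaffold of the nuclear pore and the GATOR2 complex that relays amino acid signals to mTORC1.

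Promoter windows, from 250 bases before to 50 bases after a transcription start, were taken from RefSeq (GRCh38.p14), which matched 9 of the 10 genes with 14 windows; SEC24D had no entry. Each was searched on both strands for 3 motifs, the E-box CACGTG bound by MYC-type factors, the unfolded protein response element TGACGTGG and the cyclic AMP element TGACGTCA. SEC13 is shown because its transcript changed most among the members, and SEC23A and SEC24A because theirs were the windows with a match. Capitals mark the matches, and sequences run 5′ to 3′ on the gene's strand.
SEC13, chr3:10321063-10321362, minus strand: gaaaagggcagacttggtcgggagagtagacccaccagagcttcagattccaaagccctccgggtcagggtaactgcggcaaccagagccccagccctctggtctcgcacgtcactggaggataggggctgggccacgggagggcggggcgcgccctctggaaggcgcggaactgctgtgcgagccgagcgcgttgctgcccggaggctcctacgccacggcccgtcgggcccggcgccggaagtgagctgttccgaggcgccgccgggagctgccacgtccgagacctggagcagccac
SEC23A, chr14:39103186-39103485, minus strand: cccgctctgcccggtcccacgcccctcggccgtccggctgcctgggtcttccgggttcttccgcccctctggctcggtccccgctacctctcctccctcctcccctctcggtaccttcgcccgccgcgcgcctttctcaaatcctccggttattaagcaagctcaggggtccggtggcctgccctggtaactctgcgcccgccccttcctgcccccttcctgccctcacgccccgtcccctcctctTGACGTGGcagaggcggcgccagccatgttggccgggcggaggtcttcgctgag
SEC24A, chr5:134648535-134648834, plus strand: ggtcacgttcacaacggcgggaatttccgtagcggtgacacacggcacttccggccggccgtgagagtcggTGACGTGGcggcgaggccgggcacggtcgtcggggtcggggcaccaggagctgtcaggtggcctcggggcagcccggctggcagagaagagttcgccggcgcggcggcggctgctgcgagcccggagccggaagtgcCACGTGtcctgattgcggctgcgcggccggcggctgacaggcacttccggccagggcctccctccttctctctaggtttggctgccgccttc
The SEC13 window held none of the 3 motifs, nor did a second SEC13 window that starts further downstream. The unfolded protein response element began at position -4 in SEC23A and at -179 in SEC24A, and the E-box at -42 in SEC24A, with no overlap between them. Of 35116 RefSeq windows of the same length, 0.729% held TGACGTGG, 7.26% held CACGTG and 1.85% held TGACGTCA. These matches describe letters in a window and are not evidence of binding.

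Values are TPM, a per-length measure that allows levels of different genes to be set side by side, multiplied by 1 factor per library so that ERCC spike-in RNAs have an equal sum in every library. The spike-ins were added at an unstated amount, and the read depth is unknown. Over the 12449 genes tested, the median log2 fold change was -0.32 on this spike-in scale and 0.01 as plain TPM with spike-ins left out, so both scales are given. Fold changes were computed on log2(value + 1), which understates those of low genes, and a change is called where the limma adjusted p was below 0.05. METTL1 had values of 19.7, 22.0 and 20.3 under sgNS and 8.28, 5.94 and 7.42 under sgMETTL1.3 (log2 fold change -1.41, limma adjusted p = 2.41e-06). Myeloid genes were present, with 9 of 12 markers above the filter, while CD14, MPO and ELANE stayed below 1. On the spike-in scale the summed value of the 12 was 2166 to 2330 in sgNS and 1442 to 1894 in sgMETTL1.3. On that scale 5 were called lower and 0 higher, against 49.3% and 6.4% of all genes tested. Of the markers above the filter, SPI1, CD68, ITGB2 and CSF3R had values that overlapped between the groups. LYZ was at 385 to 414 in sgNS and 66.5 to 80.6 in sgMETTL1.3, and FCER1G at 727 to 803 and 456 to 542. No sum is given as TPM, and the median of all genes was also lower on the spike-in scale. Among markers of other lineages, CD3E, MS4A1, HBB, COL1A2 and EPCAM were at or near 0 in every library. Of other-lineage markers that passed the filter, NKG7 was at 156 to 338, PECAM1 at 33.2 to 47.9, and CD79A, PAX5 and COL1A1 below 10. The library sgMETTL1.3 replicate 1 differed from the rest of its group along transcript GC content across all genes (Spearman 0.833), which is taken up below.

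SEC13 showed the largest change of the coat. It encodes a WD-repeat protein of the outer cage and is found on chromosome 3, minus strand, at 10293131 to 10321178 (GRCh38). Its values were 259, 276 and 284 with sgNS, and 60.7, 48.4 and 58.4 with sgMETTL1.3. The highest sgMETTL1.3 library was far below the lowest control, so the groups did not overlap. The mean went from 273 ± 12.7 to 55.8 ± 6.56 (SD, n = 3), or 20.4% of the control level, and the log2 fold change was -2.28 (SE 0.108). In these bulk libraries, fewer cells that express a gene and less of its RNA per cell cannot be told apart. As TPM its values were 238, 232 and 243 against 61.5, 60.9 and 64.1, a log2 fold change of -1.92 (SE 0.0524) or 26.1% of control. SEC13 ranked 12 from the lowest fold change among the 12449 genes on the spike-in scale and 13 from the lowest of 12447 as TPM. Over the 18 alternatives tried, its log2 fold change lay between -2.35 and -1.91.

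The 3′ end of SEC13 overlaps GHRLOS, a gene on the opposite strand, by 319 bases, and the sources used here do not say whether strand was used in counting. GHRLOS had a mean value of 1.89 in sgNS and 1.25 in sgMETTL1.3, which is small beside that of SEC13. The annotation also lists 1 pseudogene of SEC13, SEC13P1, which had no row. Within 250000 bases of SEC13, 8 other genes were tested, of which 4 fell, none rose and 4 did not pass, near the 49.3% of all genes that fell, with log2 fold changes from -0.76 to -0.09. As TPM 2 of them fell (FANCD2 and LINC00852) and 2 rose (BRK1 and ATP2B2). The fall of SEC13 exceeded that of each of these neighbours in size, which follows from its choice as one of the largest falls. Nothing is read from it, and the difference itself was not tested.

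SEC31A, the partner of SEC13 in the outer cage, had nearly the same values in both groups on the spike-in scale. It is found on chromosome 4, minus strand, at 82818661 to 82901166. Its values were 101, 109 and 106 in sgNS and 96.6, 90.6 and 104 in sgMETTL1.3. The sgMETTL1.3 replicate 3 library lay within the control range, so the groups overlapped, and the log2 fold change of -0.12 (SE 0.0985) did not pass. As TPM it was called higher at 0.24 (SE 0.0740), from 91.5 ± 0.934 to 109 ± 9.41 (SD, n = 3), so its direction depends on the scale. The annotation places THAP9-AS1 over 7952 bases of SEC31A on the same strand, with a mean value of 55.2 in sgNS and 34.0 in sgMETTL1.3, and reads in the shared part could be assigned to either gene.

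The ratio of SEC13 to SEC31A does not depend on the factor of a library. It was 2.57, 2.54 and 2.68 in the sgNS libraries and 0.628, 0.534 and 0.561 in the sgMETTL1.3 libraries. SEC13 transcript was thus the more abundant of the outer coat pair in every control and the less abundant in every sgMETTL1.3 library. The mean ratio went from 2.60 ± 0.0740 to 0.574 ± 0.0486 (SD, n = 3). Of the summed value of all 10 coat genes, SEC13 made up 28.7 ± 0.752% with sgNS against 9.43 ± 0.739% with sgMETTL1.3 (SD, n = 3).

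**Figure D1:**
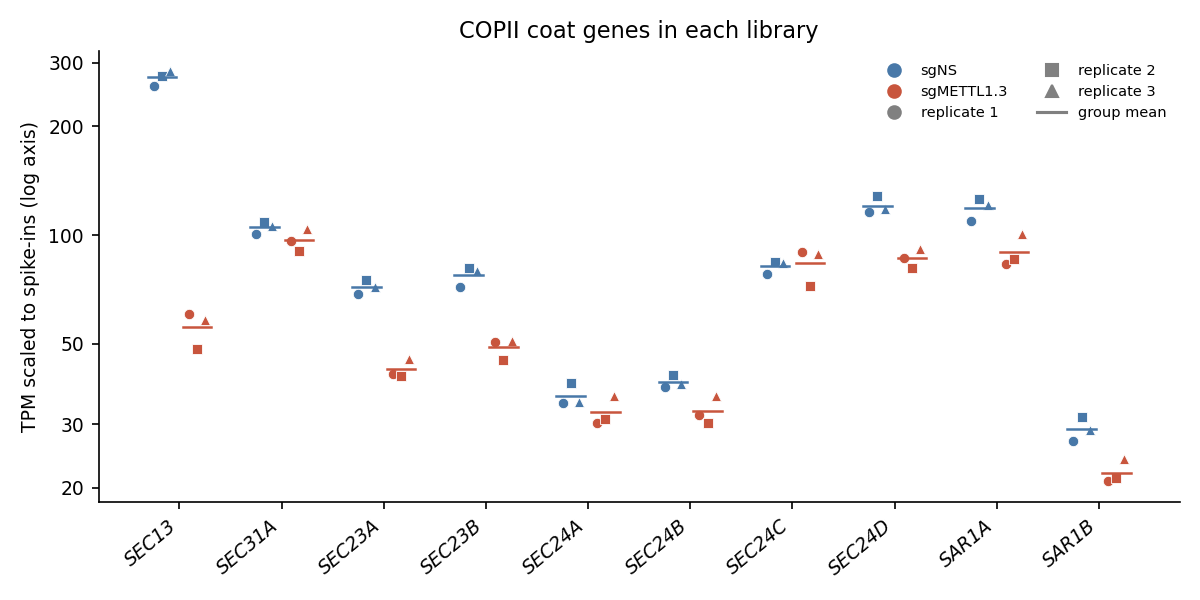
Values of the 10 COPII coat genes (TPM scaled to spike-ins, log axis) in the 3 sgNS and 3 sgMETTL1.3 libraries; each symbol is a library and each horizontal line a group mean. SEC13 has the highest values in sgNS, at 259 to 284, and lies at 48.4 to 60.7 in sgMETTL1.3, while the groups of SEC31A, SEC24A and SEC24C overlap.

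The inner coat genes SEC23A and SEC23B were both lower. SEC23A, whose loss of function underlies cranio-lenticulo-sutural dysplasia, is found on chromosome 14, minus strand, at 39031919 to 39109646. It had values of 68.5, 75.1 and 71.8 in sgNS and 41.3, 40.8 and 45.5 in sgMETTL1.3. The groups did not overlap, and the log2 fold change was -0.74 (SE 0.100), or -0.39 (SE 0.0866) as TPM. SEC23B, mutated in congenital dyserythropoietic anemia, lies on the plus strand of chromosome 20 at 18507482 to 18561415. It had values of 71.9, 81.3 and 79.5 in sgNS and 50.6, 45.0 and 51.1 in sgMETTL1.3. These groups did not overlap either, and the log2 fold change was -0.66 (SE 0.103), or -0.30 (SE 0.0636) as TPM. Both were called lower on either scale, which among the members also holds for SEC13. The balance between these paralogs moved little, since SEC23A made up 48.8, 48.0 and 47.5% of their sum in sgNS and 45.0, 47.5 and 47.1% in sgMETTL1.3, with overlapping groups.

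The cargo adaptor genes of the SEC24 family differed from each other. SEC24D, on the minus strand of chromosome 4 at 118722823 to 118838683, had the highest level of the 4 in sgNS. Its values were 116, 128 and 118 in sgNS and 86.6, 81.0 and 91.5 in sgMETTL1.3. The groups did not overlap on the spike-in scale (log2 fold change -0.48, SE 0.0987), where the fall was called, and overlapped as TPM (-0.12, SE 0.0739), where it was not. SEC24C, on the plus strand of chromosome 10 at 73744384 to 73772161, had values of 78.3, 84.3 and 83.9 in sgNS and 89.6, 72.4 and 88.8 in sgMETTL1.3. These overlap, with sgMETTL1.3 replicate 2 below and the other 2 above every control, and the log2 fold change of 0.02 (SE 0.109) did not pass. As TPM, SEC24C was higher in all 3 sgMETTL1.3 libraries, from 71.5 ± 0.486 to 93.1 ± 3.74 (SD, n = 3), and was called at 0.38 (SE 0.0562).

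SEC24A and SEC24B, which form the other pair of close relatives in the family, passed on neither scale. SEC24A lies on the plus strand of chromosome 5 at 134648789 to 134727823 and had values of 34.2, 39.0 and 34.4 in sgNS and 30.2, 31.0 and 35.8 in sgMETTL1.3 (log2 fold change -0.15, SE 0.111, and 0.20, SE 0.108, as TPM). SEC24B lies on the plus strand of chromosome 4 at 109433772 to 109540896 and had values of 38.0, 41.2 and 38.7 in sgNS and 31.8, 30.2 and 36.0 in sgMETTL1.3. The SEC24B groups did not overlap, but the log2 fold change of -0.26 (SE 0.107) missed the threshold, and it was 0.09 (SE 0.0879) as TPM. SEC24B was called lower when sgMETTL1.3 replicate 1 (-0.25) or sgMETTL1.3 replicate 3 (-0.33) was left out.

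Within the SEC24 family the share of SEC24D was lower and that of SEC24C higher in sgMETTL1.3, though on neither scale were both genes called. SEC24D made up 43.5, 43.8 and 43.0% of the family sum in sgNS and 36.4, 37.8 and 36.3% in sgMETTL1.3. SEC24C made up 29.4, 28.8 and 30.5% in sgNS and 37.6, 33.7 and 35.2% in sgMETTL1.3. Neither pair of groups overlapped, and these shares are free of the scaling factor. They are not free of differences along GC content, which was 53.6% for SEC24C and 44.2% for SEC24D. With GC correction on the spike-in scale, the log2 fold changes of SEC24C and SEC24D were -0.04 and -0.38, against 0.02 and -0.48 without it. No share was computed after GC correction. The shares of SEC24A, at 12.9 ± 0.413% and 13.8 ± 0.962% (SD, n = 3), and of SEC24B, at 14.1 ± 0.105% and 13.9 ± 0.488%, overlapped between the groups. SEC24C and SEC24D are known to recognize overlapping sets of cargo signals.

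The SAR1 genes kept their proportion. SAR1A is found on chromosome 10, minus strand, at 70147289 to 70170523 and had values of 110, 126 and 122 in sgNS and 83.2, 85.7 and 101 in sgMETTL1.3. SAR1B, mutated in chylomicron retention disease, is found on chromosome 5, minus strand, at 134601144 to 134649271 and had values of 26.9, 31.5 and 28.9 in sgNS and 20.83, 21.28 and 24.003 in sgMETTL1.3. For both genes every sgMETTL1.3 library was below every control, and the falls were called at log2 fold changes of -0.40 (SE 0.108) and -0.38 (SE 0.112). As TPM the groups overlapped and neither passed, at -0.05 for SAR1A and -0.04 for SAR1B, and SAR1B also lost its call on the spike-in scale without sgNS replicate 2 (-0.33). SAR1A made up 80.3, 80.0 and 80.8% of the SAR1 sum in sgNS and 80.0, 80.1 and 80.7% in sgMETTL1.3. The annotation lists 4 pseudogenes of SAR1A, none with a row, and its value could hold reads from them. SAR1B and SEC24A overlap head to head by 483 bases on opposite strands, so reads in that stretch could be assigned to either.

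**Figure D2:**
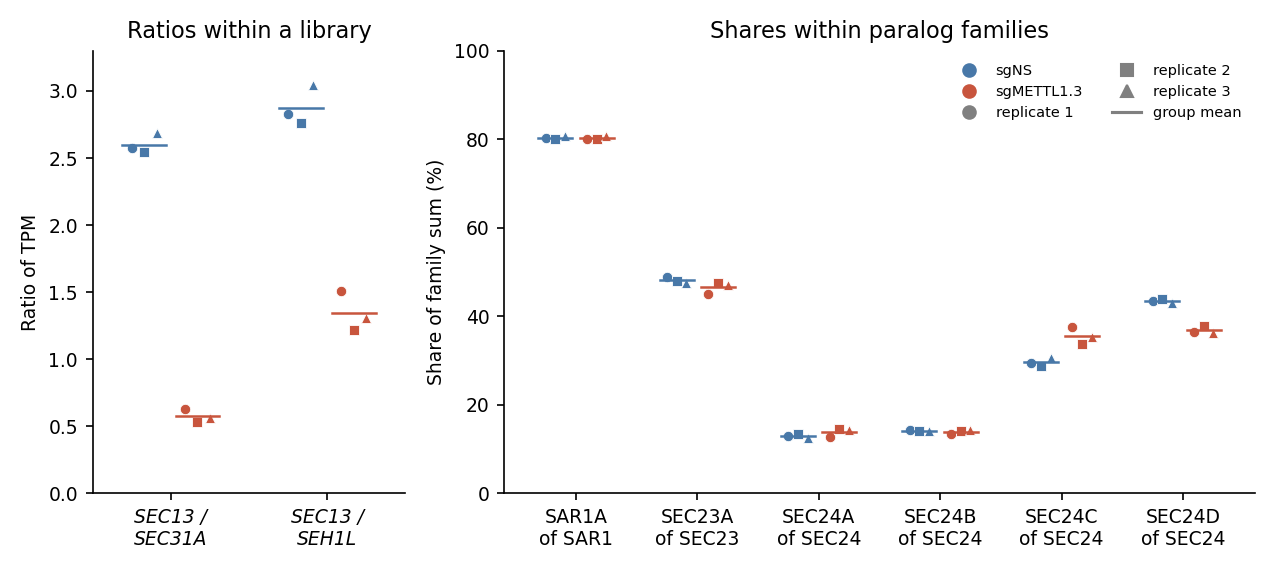
Left, ratios of SEC13 to SEC31A and to SEH1L within each library; right, the share (%) of a member in the summed TPM of its paralog family, with 1 symbol per library, lines at the group means and both guides side by side. The SEC13 to SEC31A ratio lies at 2.54 to 2.68 in sgNS and 0.534 to 0.628 in sgMETTL1.3, SEC24C and SEC24D separate between the guides, and the SAR1A share stays near 80%.

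Across the 10 members on the spike-in scale, 6 were called lower (SEC13, SEC23A, SEC23B, SEC24D, SAR1A and SAR1B), none higher and 4 did not pass, against 49.3% lower and 6.4% higher of all genes tested. As TPM, 3 were lower (SEC13, SEC23A and SEC23B), 2 higher (SEC31A and SEC24C) and 5 did not pass, against 25.3% lower and 24.8% higher of all genes. The groups did not overlap for 7 members on the spike-in scale, all lower, against 53.4% of all genes lower and 8.66% higher. As TPM they did not overlap for 3 lower and 2 higher members, against 32.1% and 30.9%. Since SEC13 was chosen on this contrast, nothing is read from these counts. The median log2 fold change of the members was -0.39, close to the -0.32 of all genes, and -0.04 as TPM. Relative to the median of all genes, SEC13 stood at -1.96, SEC23A at -0.42, SEC23B at -0.34 and SEC24D at -0.16, and SEC31A, SEC24A, SEC24B and SEC24C stood at 0.20, 0.17, 0.06 and 0.34.

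The summed value of the 10 genes was 904, 991 and 967 in sgNS and 591, 546 and 636 in sgMETTL1.3. Without SEC13 the sums were 644, 715 and 683 against 531, 498 and 577. As TPM the sum without SEC13 was 592 ± 8.56 with sgNS against 600 ± 53.7 with sgMETTL1.3 (SD, n = 3), and the groups overlapped.

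**Figure D3:**
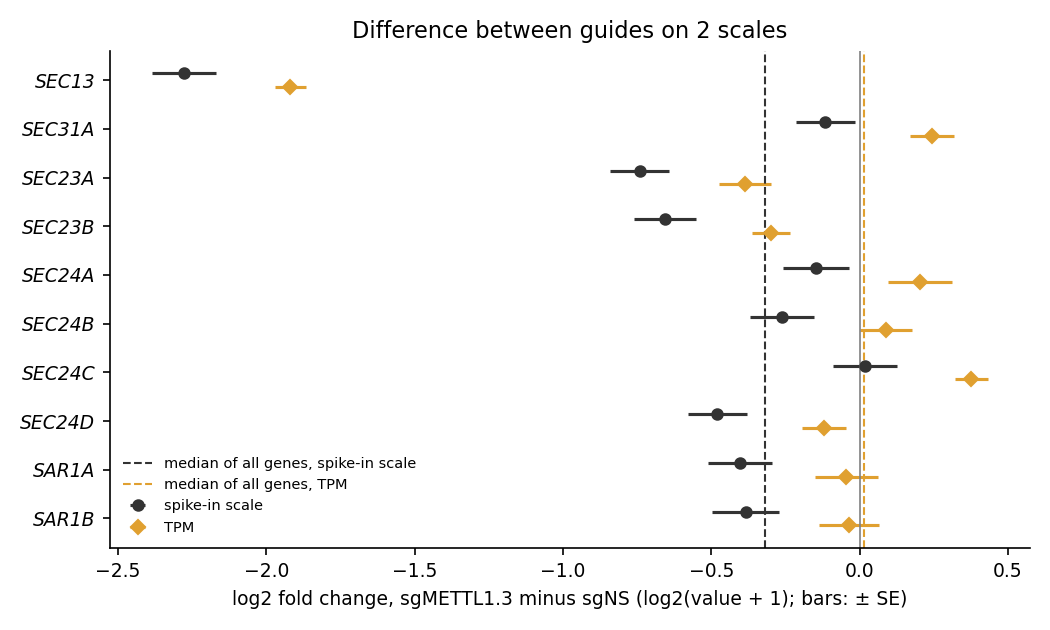
Log2 fold change (sgMETTL1.3 minus sgNS, on log2(value + 1)) of each member on the spike-in scale (circles) and as TPM (diamonds), with bars of ± 1 SE and dashed lines at the median of all tested genes on each scale. SEC13 lies at -2.28 and -1.92, and the other 9 members between -0.74 and 0.02 on the spike-in scale and between -0.39 and 0.38 as TPM.

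The order of transcript levels changed with the position of SEC13. In sgNS, SEC13 came first with all libraries above the next gene, followed by SEC24D and SAR1A, whose ranges overlapped. SEC31A came next, then SEC24C, SEC23B and SEC23A, of which neighbours overlapped, then SEC24B and SEC24A, which overlapped, and SAR1B last. In sgMETTL1.3, SEC13 was in position 5 of 10, below SEC24C with no overlap and overlapping with SEC23B. SEC31A, SAR1A, SEC24D and SEC24C held the first 4 positions there, each overlapping in range with its neighbour. Positions 6 to 10 were held by the same genes in the same order as in sgNS. Genes of 1 library share its factor, so neighbours were also compared within libraries. In sgNS, SEC24D was above SAR1A in 2 of 3 libraries, and every other gene was above the next in all 3. In sgMETTL1.3, SAR1A was above SEC24D, SEC24D above SEC24C and SEC24B above SEC24A in 2 of 3 libraries. Every other gene there was above the next in all 3.

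The difference of sgMETTL1.3 replicate 1 along GC content was also visible among the members. As TPM, the 2 members with a mean transcript GC content above 50%, SEC13 and SEC24C, had 98.4% and 96.3% of the mean of the other 2 sgMETTL1.3 libraries in it, and the 8 members with lower GC content had 77.2 to 90.8%. The GC content was 54.3% for SEC13 and 39.6% for SEC24A, the lowest of the members. Without this library the log2 fold change of SEC13 was -2.34, and SEC24C (-0.03) and SEC31A (-0.11) still did not pass on the spike-in scale. With TPM and without it, 5 members were called higher (SEC31A, SEC24A, SEC24B, SEC24C and SAR1A) and 3 lower, against 36.3% higher and 34.3% lower of all genes under that setting.

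Other genes of the early secretory pathway were followed in lists of known components. Regulators of COPII and ER exit site factors had 6 of 11 tested genes lower and none higher, against 49.3% and 6.4% of all genes, with a median log2 fold change of -0.30. As TPM 2 were lower and 2 higher, against 25.3% and 24.8%. PDCD6, a calcium-binding protein that binds SEC31A, fell from 130 ± 1.02 to 64.9 ± 4.96 (SD, n = 3; log2 fold change -1.00, limma adjusted p = 3.76e-06). CREB3L2, a membrane-bound transcription factor that drives SEC23A expression, fell (-0.60), and both also fell as TPM. KLHL12, the adaptor that directs CUL3 to SEC31, fell (-0.53), and PREB, the exchange factor that loads SAR1 with GTP, fell (-0.41), but neither passed as TPM (-0.18 and -0.05).

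ER cargo receptors and p24 proteins had 15 of 21 genes lower and none higher, against 49.3% and 6.4% of all genes, with a median of -0.51. As TPM 9 were lower and 4 higher, against 25.3% and 24.8%. CNIH1, a cornichon cargo receptor, fell from 143 ± 7.11 to 51.0 ± 6.63 (SD, n = 3; log2 fold change -1.48, limma adjusted p = 5.36e-07). MCFD2, which with LMAN1 carries coagulation factors out of the ER, fell from 142 ± 4.75 to 64.3 ± 7.77 (SD, n = 3). TMED7, a p24 protein, fell (-1.14), as did SURF4, a receptor for soluble secreted proteins (-1.04). These 4 also fell as TPM, with log2 fold changes from -1.12 for CNIH1 to -0.68 for SURF4.

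Genes of the COPI coat, which returns vesicles to the ER, had 4 of 10 members lower and 1 higher, with a median of -0.22, and 1 lower and 3 higher as TPM. The shares of all genes were 49.3% lower and 6.4% higher, and 25.3% and 24.8% as TPM, so the share of lower COPI genes did not exceed that of all genes. COPB2 fell (-0.71), also as TPM (-0.35), while COPZ1 (-0.51) and the GTPase gene ARF1 (-0.44) fell on the spike-in scale and did not pass as TPM (-0.15 and -0.08). COPG2 rose from 19.8 ± 1.54 to 25.4 ± 2.01 (SD, n = 3; log2 fold change 0.34, limma adjusted p = 0.0202). Its call was lost when sgNS replicate 1 (0.28), sgNS replicate 2 (0.37) or sgMETTL1.3 replicate 3 (0.30) was left out. Tethers and SNAREs of ER to Golgi transport had 7 of 20 lower and 1 higher, a smaller share lower than the 49.3% of all genes, with a median of -0.24. As TPM 1 was lower and 5 were higher, against 25.3% and 24.8%. Without sgMETTL1.3 replicate 1, 12 were lower on the spike-in scale, against 61.4% lower and 6.43% higher of all genes. YKT6, a SNARE, fell (-0.72), also as TPM (-0.36). The tether gene USO1 (-0.65), SCFD1 (-0.51) and TRAPPC6B (-0.46) fell on the spike-in scale but did not pass as TPM. RAB1A, a GTPase of this step that was named after its values were seen, was the gene that rose, from 305 ± 16.6 to 393 ± 23.6 (SD, n = 3; log2 fold change 0.37, limma adjusted p = 0.00565), and it rose as TPM (0.73).

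The other complexes that hold SEC13 were followed by their other subunits. All 9 tested partners in the Nup107-160 complex fell, against 49.3% of all genes, with a median of -0.77, and 7 fell as TPM against 25.3%. NUP43, a WD-repeat nucleoporin, fell from 92.3 ± 7.24 to 28.5 ± 2.58 (SD, n = 3; log2 fold change -1.66, limma adjusted p = 2.56e-07). SEH1L, a WD-repeat protein related to SEC13 that is shared by both complexes, fell from 95.1 ± 4.44 to 41.5 ± 2.78 (SD, n = 3; log2 fold change -1.18). NUP37 (-0.88), NUP85 (-0.81), NUP107 (-0.77), NUP98 (-0.70), NUP160 (-0.65), AHCTF1 (-0.58) and NUP133 (-0.56) fell less, and AHCTF1 and NUP133 did not pass as TPM. In the GATOR2 complex 3 of 4 partners were lower, against 49.3% of all genes, namely SEH1L, MIOS (-0.91) and WDR24 (-0.58), and WDR59 did not pass (-0.09). As TPM SEH1L (-0.82) and MIOS (-0.56) stayed lower, WDR24 did not pass (-0.26) and WDR59 was higher (0.26), against 25.3% lower and 24.8% higher of all genes. WDR24 also lost its call without sgMETTL1.3 replicate 3 (-0.53).

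SEC13 transcript fell relative to these partners as well. Its ratio to SEH1L was 2.83, 2.76 and 3.04 in sgNS and 1.51, 1.22 and 1.31 in sgMETTL1.3. Its ratio to NUP107 was 2.50 ± 0.0554 with sgNS against 0.873 ± 0.0915 with sgMETTL1.3 (SD, n = 3), and its ratio to MIOS was 5.23 ± 0.197 and 2.05 ± 0.305. None of these ratios overlapped between the groups. They were looked at because of the fall of SEC13 and carry no test.

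**Figure D4:**
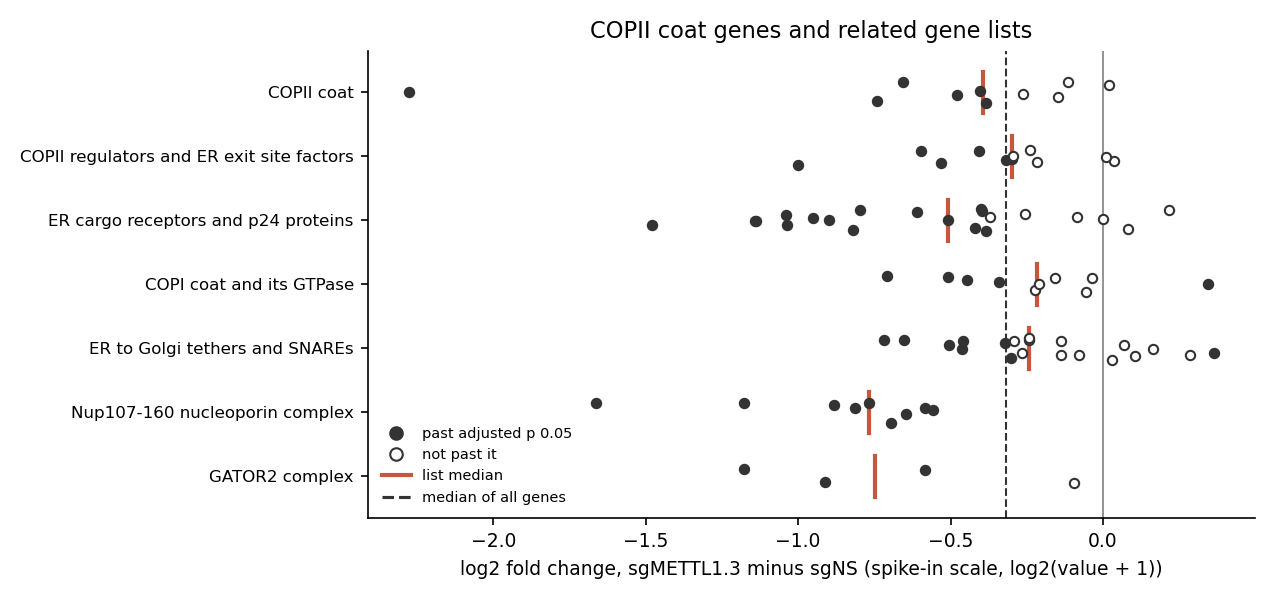
Log2 fold changes on the spike-in scale of the COPII coat genes and 6 related lists; each circle is a gene, filled where the limma adjusted p was below 0.05, with red bars at list medians and a dashed line at the median of all tested genes (-0.32). SEC13 at -2.28 lies below every gene of the 6 lists, of which NUP43 is the lowest at -1.66. SEC13 was picked for a large fall in this comparison, so its place is not a result.

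Genes whose profile over the 6 libraries was among the nearest to that of SEC13 included DCSTAMP, PSME3, NME1 and MAT2B. Nearness was the Euclidean distance between log2(value + 1) profiles, each centred on its own sgNS mean, among 10133 genes with a mean of at least 5, and it ran from 0.284 for DCSTAMP to 0.401 for MAT2B. Their log2 fold changes were -2.36, -2.13, -2.15 and -2.09. As TPM the nearest 5 were DCSTAMP, PSME3, NME1, TMTC4 and MAT2B. The distance is mostly set by the size of the difference between the guides, and reads of NME1 could be shared with the NME1-NME2 read-through gene.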

How the data were processed

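Poly(A)-selected RNA libraries were made from 300 ng of total RNA with ERCC spike-ins, per the labels' protocols. Per the submitters' processing notes, cutadapt, STAR and RSEM were used with GRCh38 and hg38; the sources used here do not state versions, annotation or strandedness. In the deposited table the signal is TPM in steps of 0.01 times 1 factor per library (0.832 to 1.23), which sets the sum of the 92 spike-in rows to 38252, as read from the values. Depth is unknown, so no counting interval is given. No 2 libraries shared more than 0.627% of TPM values.

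All genes that reached 1 in 3 or more of the 6 libraries entered a single limma 3.58.1 fit (R 4.3.3; trend, robust, no block; Benjamini-Hochberg at 0.05) on log2(value + 1), which was tested on simulated data. TPM excluded spike-ins. Same-numbered libraries did not deviate together (r from -0.04 to 0.01), so they were not paired. Loci and GC content came from GENCODE 29 (GRCh38); GC was known for 96.7% of genes tested. Named were METTL1, the members, the 5 profiles nearest to SEC13 (1 is not reported here), all partners in its other complexes, and up to 4 called, non-overlapping genes with the largest fold change per other list. Members and lists were chosen with earlier results of these data known. Alternatives were other scalings, filters and pseudocounts, no trend, a block, GC correction and libraries left out.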

Additional observations from a re-analysis of the deposited data

How the results depend on the processing

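METTL1 kept direction and call under all 18 alternatives. Counts of calls depended mainly on the scale. Genes lower numbered 6142, and 3147 as TPM, 3603 with median-ratio rescaling and 4012 as TPM with GC correction; genes higher numbered 797, and 3093, 2869 and 3739 in that order, 510 when a mean of 5 was required, and 4445 as TPM without sgMETTL1.3 replicate 1. Under each of these scalings, and as TPM without sgMETTL1.3 replicate 1, 3 coat members were lower in place of 6. Members higher numbered 2 as TPM, 2 with median ratios, 4 with GC-corrected TPM and 5 as TPM without sgMETTL1.3 replicate 1, in place of 0. Genes of the 6 lists lower numbered 43, and 21, 27 and 27 with the first 3 scalings; those higher numbered 2, and 15, 13, 24 and, as TPM without sgMETTL1.3 replicate 1, 26. Leaving out 1 library each gave 4880 to 7538 genes lower, 534 to 1037 higher, 5 to 7 members lower, 36 to 54 list genes lower and 1 to 4 higher (1 without sgNS replicate 1, sgNS replicate 2 or sgMETTL1.3 replicate 3, and 4 without sgMETTL1.3 replicate 2); the fits without sgMETTL1.3 replicate 1, with a replicate block and with GC correction on the spike-in scale pooled the spread fully across most genes. Without sgNS replicate 3 the limma adjusted p of METTL1 was also far smaller than in the main fit (1.64e-12 against 2.41e-06). How far that fit pooled the spread is not given here. The fit with a replicate block, whose numbers do not pair the libraries, gave 5861 genes lower, 814 higher and 1 list gene higher.

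Directions changed for genes near the median of all genes. SEC31A was 0.24 as TPM, 0.21 with median ratios, 0.32 with GC-corrected TPM and 0.32 as TPM without sgMETTL1.3 replicate 1, and WDR59 was 0.26, 0.22, 0.24 and 0.29. With the last 2 of these, SEC24A was 0.37 and 0.32, SEC24B 0.18 and 0.18, SAR1A 0.0817 and 0.0778, SAR1B 0.078 and 0.0712, and TRAPPC6B 0.0233 and 0.0436. SCFD1 was 0.031 as TPM with GC correction. Apart from the change of scale, the causes were not tested. The SEC24C share differed between the guides by 4.92 to 6.87 percentage points and the SEC24D share by -7.10 to -6.36 with 1 library left out each. The unknown depth limits what can be said of single libraries.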
